A study of Mus musculus with 6 samples.

Results

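Antisense loci are transcribed units on the strand opposite to another gene. The loci described here are the spliced loci of an assembly of mouse embryonic stem (ES) cell RNA that lie opposite to exons of an annotated gene and match no annotated gene on their own strand. A locus was taken when the assembly gives at least 1 of its transcripts the class for exons on the opposite strand of an annotated gene, none of its transcripts a class for a match, a new isoform or an overlap on the same strand, and no protein identifier. Chromosomes X and Y were left out. This rule found 444 of the 18420 loci in the count table (460 with X and Y). The sense partner of each was the opposite-strand locus of the table, among those the assembly gives a protein identifier, with the most exonic bases in common, or the most span where none are shared. GENCODE M21 lists 282 of 291 named partners as protein coding. A partner was found for 325 of the 444 loci.

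RNA was sequenced at 2 stages, with 3 libraries each. Day 0 is the undifferentiated state of a mouse ES cell line that carries a BAC reporter, Nkx2.5-EmGFP, grown on feeders of mouse embryonic fibroblasts or on gelatin with LIF, the cytokine that keeps ES cells undifferentiated. Day 6 is the same line as embryoid bodies, 6 days after cardiac differentiation was started by aggregating cells in hanging drops. All 6 libraries share the line and its reporter, and the labels do not say that embryoid bodies were freed of feeder cells or sorted. The growth protocol names the line's strain as 129/OlaHsd (subline E14Tg2A.4) and the strain label reads C57BL/6J, which the labels do not settle. Libraries were selected for poly(A) RNA and sequenced as paired reads. The series' design text calls the 3 libraries of a stage biological replicates, and p-values here measure the spread between these libraries.

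Antisense RNAs can overlap the start of their sense gene head-to-head, its end tail-to-tail, or lie wholly inside it. Pairs that start close together and run apart are called divergent, and many mammalian promoters give rise to RNA in both directions. Antisense RNAs are known to act on their sense genes in some cases through transcription itself, through chromatin or through paired RNA, while for most of them no function is known.

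Gene names were not in the files. They were set by comparing intron and internal exon lengths with GENCODE M21, a later mouse annotation. Runs of introns and exons named 291 of the 319 distinct partners and 17 of the 444 antisense loci. A further 35 antisense loci were named from 1 intron of the same length, at the same distance from an intron of the partner, which is a weaker match. The term unannotated thus holds for the annotation the assembly was compared with. Of these 52, GENCODE M21 lists 30 as antisense RNAs, 11 as lincRNAs, 4 as bidirectional promoter lncRNAs, 4 as protein coding, 2 as processed transcripts and 1 as a macro lncRNA. Splice junctions of 6 of these loci are shown because the results below turn on these loci. The names Hand2os1, Gm44210 and Gm42723 rest on runs, and Gm38708, Gm45346 and D7Ertd128e on 1 intron length. The junctions are those of the annotated RNAs, and whether reads of the loci hold the same bases was not tested. Each line gives 15 bases of the exon before the junction in lower case and 15 bases of the exon after it in capitals, in the direction of the antisense RNA, from the GENCODE M21 transcript (GRCm38) whose intron at this junction has the same length as that of the locus.
Hand2os1 (XLOC_035216): ttcggattggccaagGCAGGTCTGATTCTA
Gm38708 (XLOC_030289): gagagatgcgcgaagGGACAGCGGCCCTGA
Gm45346 (XLOC_020962): agcctaagaaaacagGCAATAGAAGGAGAG
D7Ertd128e (XLOC_031526): gctgtgatgaagcagGGCTCAAGCAAGAAG
Gm44210 (XLOC_030281): gtccagcccgtagtgGCCTTTCCGCTATTG
Gm42723 (XLOC_018499): agtgctcggtacaagGCAAGTGTTCCAATT

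The assembly was placed on the mm9 genome, and positions of loci and introns are given on that build. The intron of Hand2os1 spans chr8:59785973-59793311 on the minus strand. The intron of Gm38708 spans chr6:88139335-88140153 on the minus strand. The intron of Gm45346 spans chr2:109511130-109511235 on the minus strand. The intron of D7Ertd128e spans chr7:31670750-31671237 on the plus strand. The intron of Gm44210 spans chr6:87680605-87680961 on the minus strand. The intron of Gm42723 spans chr19:38383111-38383637 on the minus strand. The locus matched to Hand2os1 has no partner in the table, and the others lie opposite to Gata2, Bdnf, Cd22, Efcc1 and Lgi1, in that order.

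Most antisense loci were short chains of exons with low counts. Their longest transcript had 2 exons in 235 of 444 loci and at least 5 exons in 51, and the exonic length ran from 277 to 120778 nt with a median of 6520 nt. The plus strand held 215 and the minus strand 229. All transcripts of 318 loci were antisense to annotated exons, and 125 loci also held an intergenic transcript. Of the 325 loci with a partner, 128 lay inside the span of the partner, 96 overlapped its end, 85 overlapped its start and 16 spanned it. A median of 25.9% of their exonic bases lay in exons of the partner (0 to 98.6%) and a median of 93.2% inside its span. By shared exonic percent, 46 loci shared 0, 53 up to 10%, 140 between 10 and 50% and 86 over 50%. The values at these limits were close to one another: 9.25% (XLOC_022869) and 10.2% (XLOC_004617) on either side of 10%, with log2 changes of 4.78 and -0.06, and 49.8% (XLOC_010664) and 50.03% (XLOC_010616) on either side of 50%, with changes of 0.43 and -2.05.

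Of the 444 loci, 387 had at least 10 normalized counts in at least 3 libraries and were tested, and 57 were not. A normalized count is a read count divided by a size factor of its library, a scaling done by the authors. Counts of changed loci apply to the 387. Per exonic kilobase, the tested antisense loci had a median of 12.2 normalized counts, against 117 over all 17145 tested loci of the table. In the 277 pairs with both loci tested, the antisense loci had a median of 13.3 and their 272 distinct partners one of 77.1 counts per kilobase. The antisense locus was above its partner per kilobase in 46 of the 277 pairs, and its level was a median of 19.2% of that of the partner. This share was 43.3% where no exonic base was shared, 12.8% with up to 10% shared, 22.1% with 10 to 50% and 12.7% with over 50%. No source used here says whether counting took the strand of a read into account. Where exons of locus and partner overlap, the origin of a read cannot be told apart. Levels per kilobase were divided by the full exonic length, shared bases included.

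As ES cells formed embryoid bodies, 170 of the 387 tested antisense loci changed, 51 of them higher and 119 lower at day 6. This is 43.9%, beside 44% of all tested loci of the table (22.2% higher and 21.8% lower). Values of the stages did not overlap for 75 antisense loci that were higher and 144 that were lower at day 6, 56.6% of those tested, beside 57.3% of all tested loci. The median change was -0.35 on the log2 scale for antisense loci and 0.02 for all tested loci, and 39.5% of antisense loci lay above 0, against 50.9% of all. With quantile normalization in place of the authors' scaling, the medians were -0.12 and -0.01, with 64 antisense loci higher and 102 lower. Levels of 8-fold or more apart were called for 14 higher and 9 lower antisense loci. The same share over all tested loci was not computed, so these counts stand without a comparison. Without day 6 replicate 2 the calls numbered 113, 36 higher and 77 lower. In bulk RNA, fewer cells of a type and less RNA per cell cannot be told apart.

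The share of antisense loci called lay between 38.2 and 47.9% in 5 classes of mean level. Antisense loci with a mean under 20 normalized counts changed in 26 of 66 cases (39.4%), with 20 to 50 in 46 of 102 (45.1%), with 50 to 200 in 45 of 94 (47.9%), with 200 to 1000 in 40 of 91 (44%) and with more in 13 of 34 (38.2%). Over all tested loci of these classes the shares were 39.8%, 43.5%, 47.9%, 47.7% and 42.3%. The median log2 changes of the antisense loci in the 5 classes were -0.65, -0.34, -0.53, -0.17 and 0.06, beside -0.31, -0.40, -0.34, -0.02 and 0.13 over all tested loci. The median standard error of a log2 change fell from 0.54 in the lowest to 0.22 in the highest class of antisense loci, so single values of low loci are less exact. Together the 444 loci held 0.151, 0.137 and 0.142% of the normalized counts in day 0 replicates 1, 2 and 3 and 0.114, 0.106 and 0.116% at day 6, and the stages did not overlap.

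Markers of the cells were read from the same table. Of 8 listed ES cell markers 6 were found by name, of which Zfp42, Esrrb, Klf4 and Tfcp2l1 fell, while Nanog (adjusted p = 0.0799) and Dppa3 (adjusted p = 0.233) did not pass the test. The locus named Nanog was low, with 144, 135 and 281 counts at day 0, beside 69443 to 87280 for Esrrb. Whether it holds all reads of Nanog was not tested. All 7 fibroblast markers, which stand for feeder cells, were present at both stages and none was at 0. Postn rose, Thy1, Dcn and Col1a2 fell, and the sum of the list ran from 52631 to 223756 normalized counts at day 0, highest in replicate 3, and from 108097 to 149475 at day 6. The part of feeder RNA in the changes below was not tested. Of 5 cardiac markers Nkx2-5, Tnnt2 and Actc1 rose and Myh6 and Myl7 fell, the mesoderm genes T and Eomes and the endoderm genes Foxa2 and Afp rose, and the neural gene Pax6 fell. Day 0 libraries varied more, with a median SD per locus of 0.40 on the log2 scale against 0.14 at day 6.

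Antisense loci and their partners more often moved the same way than in opposite ways. Of the 277 pairs with both loci tested, 202 (72.9%) had log2 changes of the same sign. Both loci changed in 77 pairs: in 71 they moved the same way, 21 up and 50 down, and in 6 they moved in opposite ways. Among the 2633 other opposite-strand pairs of the table, paired by the same rule, 64.1% had changes of the same sign. Both changed the same way in 14% and in opposite ways in 2.7%. Where each of these loci was the partner of the other, the pair was counted once, and the locus listed first was taken as the locus. The difference between these groups of pairs was not tested. In 39 pairs of the antisense loci that locus changed without a call of the partner, in 61 the partner without a call of the locus, and in 100 neither. The partner was called for 77 of 116 called antisense loci (66.4%) and for 61 of 161 uncalled ones (37.9%). In the other opposite-strand pairs it was called for 440 of 934 called loci (47.1%) and 476 of 1699 uncalled ones (28%). Of the 272 distinct partners 135 changed (49.6%, beside 44% of all tested loci), 62 higher and 73 lower. Leaving out day 6 replicate 1 or day 6 replicate 2 left 39 or 36 pairs called the same way and 93 or 88 partners changed, and without day 0 replicate 3 or day 6 replicate 1 the pairs called in opposite ways numbered 3. Among pairs, antisense loci were linked to a partner that no other antisense locus had in 268 cases, of which 73.1% had the same sign.

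The share of same-sign pairs lay between 67.6 and 77.6% in the 4 classes of shared exonic sequence. It was 70% of 40 pairs with no shared exonic base, 77.6% of 49 with up to 10%, 75.2% of 117 with 10 to 50% and 67.6% of 71 with over 50%. In the other opposite-strand pairs of the table it was 55.2% of 324, 64.6% of 562, 63.1% of 1005 and 68.9% of 742. Both loci changed the same way in 13, 14, 31 and 13 pairs of the 4 classes and in opposite ways in 2, 1, 2 and 1. Across pairs, the log2 changes of locus and partner had a Pearson correlation of 0.28 and a Spearman correlation of 0.31 with no shared exonic base, 0.55 and 0.63 with up to 10%, 0.63 and 0.64 with 10 to 50%, and 0.60 and 0.55 with over 50%. Locus and partner come from the same libraries with the same depth. How reads over shared exonic bases were assigned or left out in counting was not tested. In 52 pairs neither locus shared over 10% of its exonic bases with any other locus, and 73.1% of these had the same sign, with 18 called the same way and 1 in opposite ways.

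**Figure D1:**
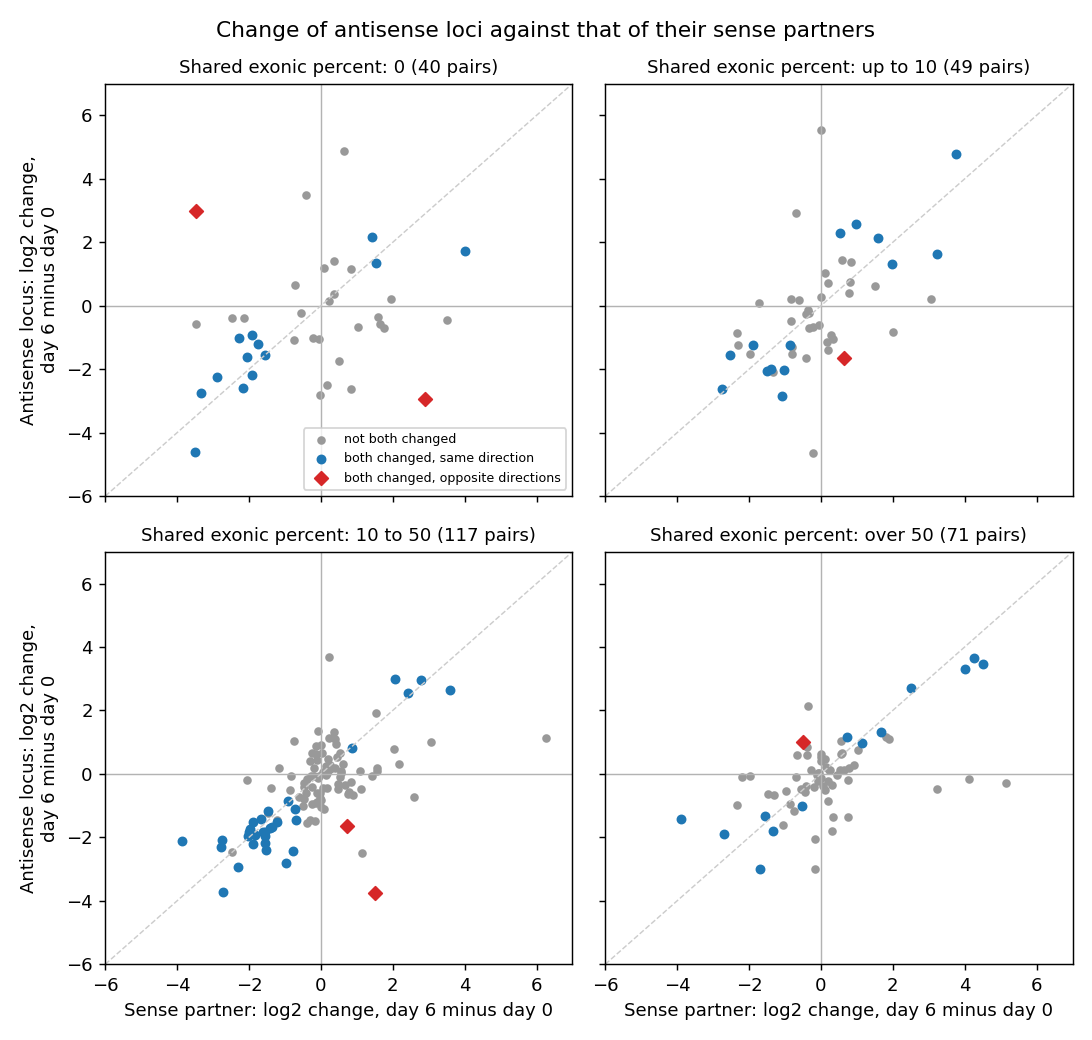
Log2 change from day 0 to day 6 of each antisense locus (vertical axis) against that of its sense partner (horizontal axis), in 4 panels by the percent of its exonic bases shared with exons of the partner. Each point is 1 of 277 pairs, blue where both changed the same way (71 pairs), red where both changed in opposite ways (6 pairs), grey otherwise, and the dashed line marks equal change.

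**Figure D2:**
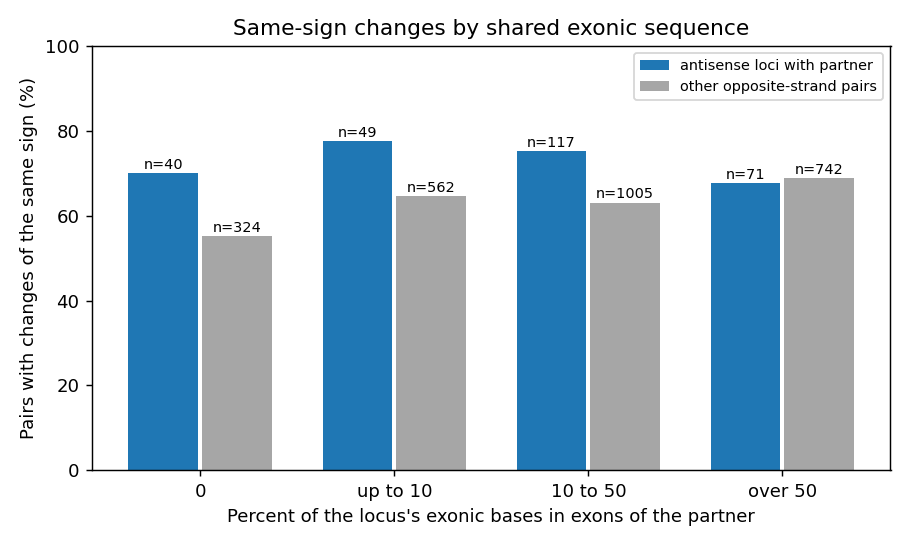
Percent of pairs whose log2 changes have the same sign, by shared exonic percent, for antisense loci with their partners (blue) and other opposite-strand pairs of the table (grey), with the number of pairs above each bar. The blue bars lie between 67.6 and 77.6% and the grey bars between 55.2 and 68.9%.

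Pairs were also described by position. Same-sign changes made up 78.4% of 74 head-to-head pairs, 75% of 84 tail-to-tail pairs, 67% of 109 pairs with the locus inside the partner and 80% of 10 pairs with the locus spanning it. In the other opposite-strand pairs these shares were 63.9, 65.7, 61.9 and 61.7%. The median log2 change of the antisense locus was 0.12 in head-to-head pairs, where 11 pairs rose and 11 fell together, and -0.61 for loci inside their partner, where 6 rose and 25 fell together. In the other pairs the medians were 0.08 and -0.01, and 80 rose and 45 fell together head-to-head and 47 and 43 with the locus inside. In 17 head-to-head pairs the 2 starts lay within 1000 nt of each other, of which 15 had the same sign and 7 were both called, all 7 the same way. With starts further apart, 43 of 57 head-to-head pairs had the same sign, 15 were called the same way and 4 in opposite ways. In the other opposite-strand pairs with starts within 1000 nt, 63.5% of 230 had the same sign. Both loci were called in 38 of these 230, 36 the same way and 2 in opposite ways. Of the other head-to-head pairs with starts further apart, 101 of 512 were both called, 89 the same way and 12 in opposite ways. Differences between these shares were not tested.

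The difference between the change of a locus and that of its partner was tested in each pair as the log2 ratio of their counts. The ratio changed in 76 of the 277 pairs (27.4%), beside 28.8% of all 2910 opposite-strand pairs tested. The antisense locus fell relative to its partner in 47 pairs and rose relative to it in 29. By shared exonic percent the ratio changed in 20 of 40 pairs with no shared base, 15 of 49 with up to 10%, 26 of 117 with 10 to 50% and 15 of 71 with over 50% (50, 30.6, 22.2 and 21.1%). In the other opposite-strand pairs of the same classes the shares were 40.4, 29.2, 29.2 and 23.6%, also highest with no shared base. Of the 71 pairs that moved the same way, the ratio changed in 10 and did not pass the test in 61, which does not show that locus and partner moved by the same amount. Leaving out day 6 replicate 1 gave 47 pairs with a changed ratio and leaving out day 6 replicate 2 gave 48.

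In 21 pairs both loci rose. Antisense loci named for the largest rises and falls, here and below, were picked among called loci whose stages did not overlap. For these loci the lack of overlap was thus set by the choice. Gata2 encodes a transcription factor of blood progenitors. The antisense locus at its start, XLOC_030289, matched Gm38708, lies at chr6:88135722-88148528 on the minus strand and shares no exonic base with any other locus. Its day 0 replicates 1, 2 and 3 had 40.1, 51.8 and 67.8 normalized counts and its day 6 replicates 349, 199.9 and 196. It rose by 2.18 on the log2 scale (SE 0.35, adjusted p = 0.00165), and all day 6 values lay above all day 0 values. Gata2 went from 836, 751 and 779.8 to 2582, 2013 and 1830 counts and rose by 1.43 (SE 0.20, adjusted p = 0.000752), also without overlap of the stages. The ratio of the pair did not pass the test (change 0.75, adjusted p = 0.0897). Fgf3 encodes a secreted fibroblast growth factor. The locus over its end, XLOC_033719 (chr7:152025518-152041481 on the minus strand), shares 73.9% of its exonic bases with it. The antisense locus had 7.85, 14.5 and 12 counts at day 0 and 132, 125 and 102 at day 6, a rise of 3.31 (SE 0.36, adjusted p = 0.000203), and Fgf3 had 133, 66.3 and 45.9 counts at day 0 and 1447, 1213 and 1021 at day 6, a rise of 4.02 (SE 0.40, adjusted p = 0.000147). Neither locus had overlapping stages, and the ratio did not pass the test (change -0.71, adjusted p = 0.345).

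Enpep encodes a membrane aminopeptidase that cleaves angiotensin. XLOC_022869, inside Enpep at chr3:128970927-128990510 on the plus strand with 9.25% of its exonic bases in exons of the partner, had 6.98, 1.04 and 0 counts at day 0 and 64.9, 70.7 and 69.9 at day 6. Its day 0 values rest on few reads, and it was at 0 in replicate 3. It rose by 4.78 (SE 0.71, adjusted p = 0.00108) and Enpep by 3.76 (SE 0.35, adjusted p = 0.000107), from 30.5, 15.5 and 17.9 to 242, 319 and 312 counts. Zfp503 encodes a zinc finger protein. The locus at its start, XLOC_010213 (chr14:22806815-22818300 on the plus strand, 23.3% shared), had 8.72, 4.14 and 5.98 counts at day 0 and 56.8, 49.2 and 60.5 at day 6, and rose by 3.00 (SE 0.39, adjusted p = 0.000528). Zfp503 itself went from 880.2, 541 and 851 to 3131, 3397 and 2816 counts and rose by 2.07 (SE 0.23, adjusted p = 0.000265). The stages did not overlap for Enpep and Zfp503 either. Zfp503 had no part in the choice of its pair. The Enpep pair, and below those of 8030451A03Rik, Irak3 and Pdc, were also picked for large changes of both loci called the same way. The changes of these partners were thus part of the choice. A further pair with over 50% shared, XLOC_015350 at chr17:86087447-86113358 on the plus strand with its unnamed partner, rose by 3.46 (SE 0.40, adjusted p = 0.000284) and 4.50 (SE 0.23, adjusted p = 8.99e-06).

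Some further pairs that rose together were picked after their values were seen, for genes with a known role. D7Ertd128e (XLOC_031526, chr7:31616168-31693289 on the plus strand) spans Cd22, an inhibitory receptor of B cells, and went from 135, 223 and 64.8 to 697, 883 and 905 counts, a rise of 2.71 (SE 0.43, adjusted p = 0.00144). Cd22 went from 61.9, 70.4 and 20.9 to 246, 253 and 287 counts, a rise of 2.51 (SE 0.46, adjusted p = 0.00299). In both loci day 0 replicate 3 was the lowest library and the stages did not overlap. Cd22 shares 66.1% of its exonic bases with other loci. Gm44210 (XLOC_030281, chr6:87678767-87682691 on the minus strand) at the start of Efcc1 went from 6.98, 1.04 and 5.98 to 30.4, 21.5 and 37.6 counts, and Efcc1 from 56.7, 8.29 and 27.9 to 279, 293 and 329. They rose by 2.64 and 3.59, and day 0 replicate 2 was the lowest library in both.

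**Figure D3:**
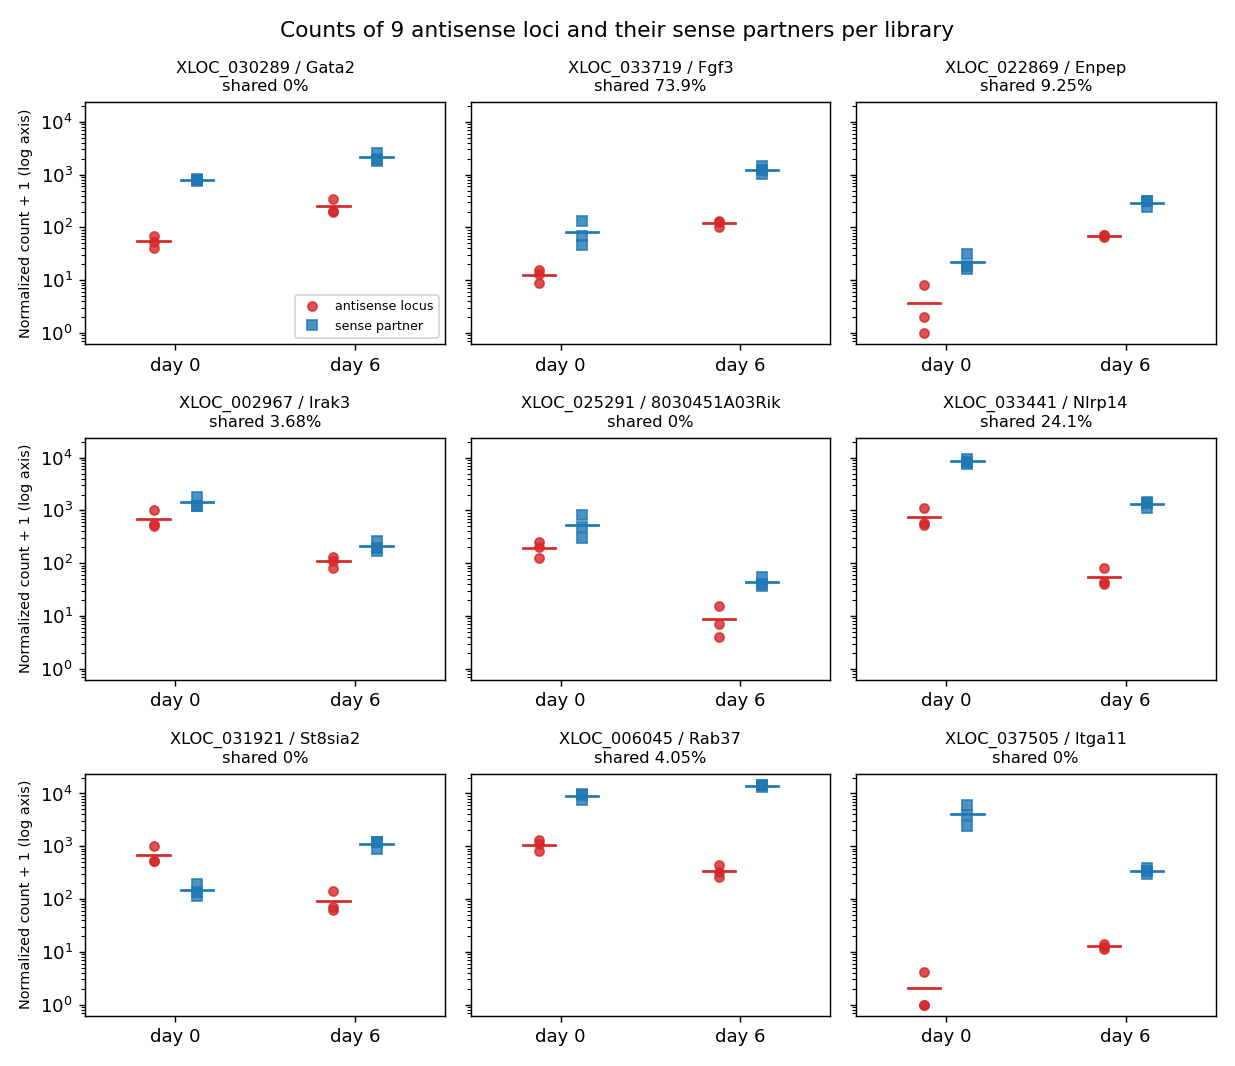
Normalized count + 1 (log axis) of 9 antisense loci (red circles) and their sense partners (blue squares) in each library, with the mean of the 3 libraries of a stage as a line. The top row holds pairs that rose together, the middle row pairs that fell together and the bottom row pairs that moved in opposite ways, and the title of each panel gives the percent of the locus's exonic bases in exons of the partner.

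The larger group, 50 pairs, fell together. XLOC_025291 (chr4:63732842-63745122 on the minus strand) lies inside 8030451A03Rik, listed by GENCODE M21 as a processed transcript. It had 127, 198 and 250.3 counts at day 0 and 3.04, 6.15 and 14.6 at day 6, so that it fell by 4.60 (log2) (SE 0.54, adjusted p = 0.000318). The partner fell by 3.50 (SE 0.41, adjusted p = 0.000321), from 478, 294 and 829.6 to 35.5, 40 and 53.2 counts, and neither locus overlapped between the stages. Irak3 encodes an inhibitor of Toll-like receptor signalling. XLOC_002967 (chr10:119582704-119602535 on the plus strand, 3.68% shared) lies inside it and went from 550.5, 1011 and 502 to 111, 80 and 132 counts, a change of -2.62 (SE 0.35, adjusted p = 0.000616). Irak3 went from 1226, 1785 and 1236 to 169, 196 and 267, a change of -2.75 (SE 0.27, adjusted p = 0.000148). Of the exonic bases of Irak3, 71.6% lie in exons of other loci, so its counts may be affected by how shared bases were counted. Day 0 replicate 2 was the highest library in both loci of this pair.

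Nlrp14 encodes a member of the NLR family known from germ cells. The locus of this name holds matches to more than 1 gene, so its counts may not be of Nlrp14 alone. XLOC_033441 (chr7:114341984-114387992 on the minus strand, 24.1% shared) lies inside it and had 584, 1125 and 529 counts at day 0 and 43.6, 40 and 79.3 at day 6. It fell by 3.74 (SE 0.40, adjusted p = 0.000206), while Nlrp14 fell by 2.71 (SE 0.17, adjusted p = 2.24e-05), from 7663, 9496 and 8381 to 1089, 1399 and 1425 counts. Day 0 replicate 2 was again the highest in both. Pdc encodes phosducin, a G-protein regulator of photoreceptors. 2310030A07Rik (XLOC_001336, chr1:152168888-152201517 on the minus strand) overlaps the end of Pdc with no shared exonic base and went from 259, 61.1 and 135 to 17.2, 9.23 and 36.5 counts, a change of -2.76 (SE 0.63, adjusted p = 0.00852). Pdc was low, with 37.5, 10.4 and 18.9 counts at day 0 and 1.01, 0 and 3.13 at day 6, and fell (adjusted p = 0.00479). With at most 3 reads per day 6 library, no fold is given for Pdc. In both, day 0 replicate 2 was the lowest of its stage. Rnf165, a ubiquitin ligase, fell by 1.51 (SE 0.19, adjusted p = 0.000428), and the locus at its start, XLOC_016936, by 2.05 (SE 0.59, adjusted p = 0.0225). That locus had 109.9, 675 and 299 counts at day 0 and 65.9, 58.4 and 78.3 at day 6. Rnf165 had 7150, 5990 and 5555 counts at day 0. Replicate 1 was thus the highest library of Rnf165 and the lowest of the antisense locus at that stage. The call of XLOC_016936 was lost without day 0 replicate 3 and without day 6 replicate 1, 2 or 3 (adjusted p up to 0.0749). It was also lost with quantile normalization (-1.85, adjusted p = 0.0525).

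The pairs of Dppa4 and Sox2ot, among the 50 that fell together, were picked after their values were seen. Dppa4, a nuclear protein of pluripotent cells, changed by -1.56 (SE 0.27, adjusted p = 0.00221), from 8039, 17380 and 10260 to 3522, 3589 and 4418 counts. XLOC_014124 at its start (chr16:48272080-48286731 on the minus strand, 30.1% shared) went from 20.1, 42.5 and 46.9 to 9.13, 6.15 and 9.39 counts and changed by -1.95 (SE 0.45, adjusted p = 0.0084). Day 0 replicate 1 was the lowest of its stage in both. Sox2ot is a long noncoding RNA that spans Sox2, a transcription factor of pluripotent and neural cells. The partner locus matched to Sox2ot carries a protein identifier in the assembly, as all partners do, so its counts may not be of the noncoding RNA alone. This locus went from 88395, 87495 and 64353 to 20753, 21303 and 24364 counts, a change of -1.84 (SE 0.16, adjusted p = 8.39e-05). Sox2 itself was not among the loci named, and whether the Sox2ot locus holds its reads was not tested. XLOC_023045, inside the Sox2ot locus at chr3:34559726-34579883 on the minus strand with 30.6% shared, went from 167, 262 and 327 to 79.1, 44.1 and 71 counts, a change of -1.94 (SE 0.37, adjusted p = 0.00358). Day 0 replicate 3 was the highest of its stage in XLOC_023045 and the lowest in the Sox2ot locus. The stages did not overlap for any of these 4 loci.

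In 6 pairs both loci changed and moved in opposite ways. St8sia2 encodes an enzyme that adds polysialic acid to neural cell adhesion molecules. XLOC_031921 (chr7:80997007-81093511 on the plus strand) overlaps its end, and neither of them shares an exonic base with any other locus. The antisense locus had 527, 521 and 1016 counts at day 0 and 70, 60.5 and 142 at day 6, a change of -2.94 (SE 0.41, adjusted p = 0.000823). St8sia2 had 133, 115 and 194 counts at day 0 and 1184, 1188 and 876 at day 6, a change of 2.89 (SE 0.28, adjusted p = 0.000144). Replicate 3 was the highest library of the antisense locus at both stages, and the stages overlapped for neither locus. The log2 ratio of the pair changed by -5.83 (SE 0.41, adjusted p = 3.2e-05). This pair was picked for its opposite calls and for a large change of a called ratio, so these calls were set by the choice.

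The locus named Rab37, a small GTPase of secretory vesicles, changed by 0.65 (SE 0.14, adjusted p = 0.007), from 7661, 9907 and 9545 to 13288, 14796 and 14324 counts. This partner locus holds matches to more than 1 gene, so its counts may not be of Rab37 alone. XLOC_006045 at its start (chr11:114952223-114964629 on the minus strand, 4.05% shared) went the other way by -1.65 (SE 0.29, adjusted p = 0.00226), from 1300, 817 and 1103 to 443, 257 and 328 counts. Day 0 replicate 2 was the lowest of its stage in XLOC_006045 and the highest in the Rab37 locus. The stages overlapped for neither locus of this pair.

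Itga11, a collagen-binding integrin chain of mesenchymal cells, fell by 3.49 (SE 0.32, adjusted p = 0.000103), from 3851, 2464 and 6036 to 387, 341 and 304 counts. XLOC_037505 (chr9:62501420-62543216 on the minus strand) had 0, 3.11 and 0 counts at day 0 and 13.2, 10.3 and 11.5 at day 6 and rose (adjusted p = 0.00647). With at most 3 reads in a day 0 library, no fold is given. It shares no exonic base with Itga11 but 57.7% with other loci. Lemd2, a nuclear envelope protein, changed by 0.74 (SE 0.17, adjusted p = 0.00774) and XLOC_014796 by -1.65 (SE 0.44, adjusted p = 0.0161), a call lost without day 0 replicate 3 and without day 6 replicate 1. XLOC_028115 changed by 1.02 (SE 0.33, adjusted p = 0.0373) and its unnamed partner by -0.50 (SE 0.16, adjusted p = 0.0324), a call lost without day 0 replicate 3 and without day 6 replicate 1, 2 or 3. The call of XLOC_028115 held without day 0 replicate 2 and in no other fit with 1 library left out, and its adjusted p was 0.0576 with the replicate number as a block and 0.0665 with library weights per stage. Its partner had an adjusted p of 0.0634 with plain empirical Bayes.

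**Figure D4:**
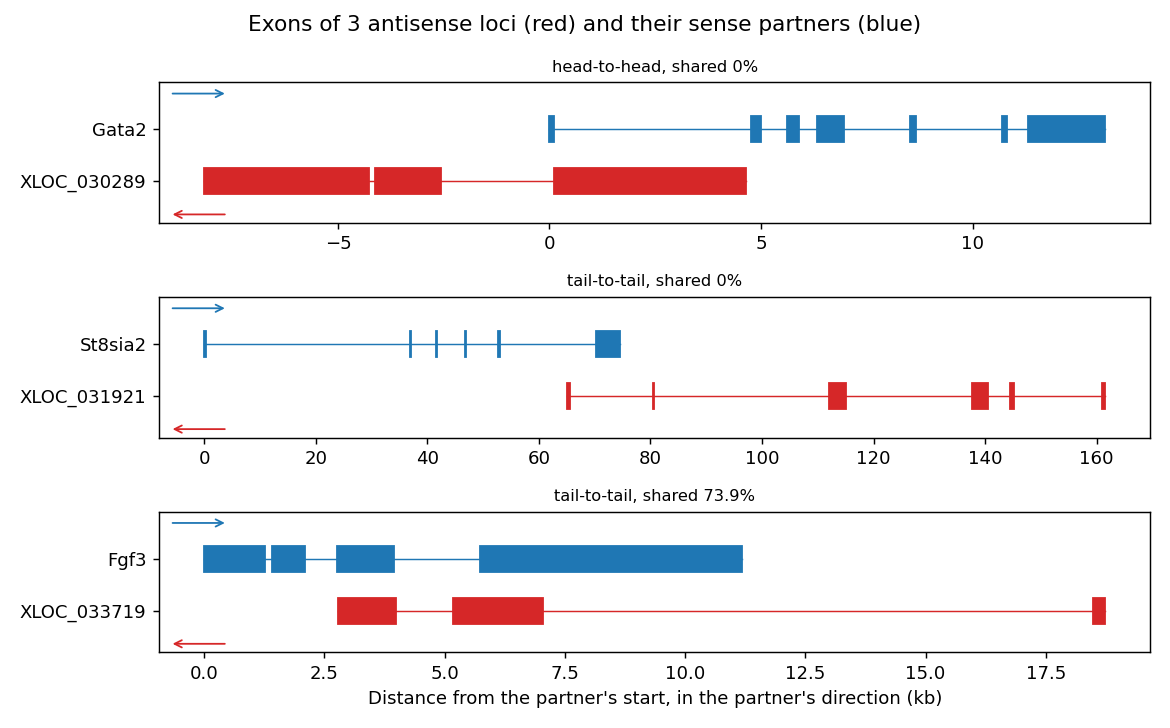
Exons (boxes) and introns (lines) of 3 antisense loci (red) and their sense partners (blue), by distance from the start of the partner in kilobases, with arrows for the direction of transcription. The Gata2 pair overlaps head-to-head with 0% of the locus's exonic bases shared, the St8sia2 pair tail-to-tail with 0% and the Fgf3 pair tail-to-tail with 73.9%.

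In 39 pairs the antisense locus changed and no call was made for the partner. Tbxas1 encodes thromboxane synthase. XLOC_029994, inside it at chr6:38969728-38999430 on the minus strand with no shared exonic base, had 1.74, 0 and 0.997 counts at day 0 and 32.4, 60.5 and 67.8 at day 6, and rose (adjusted p = 0.00023). With 0 to 2 reads per day 0 library, no fold is given. Tbxas1 had 12.2, 11.4 and 23.9 counts at day 0 and 18.3, 23.6 and 32.4 at day 6, and its change of 0.65 did not pass the test (SE 0.44, adjusted p = 0.26). Mgea5 encodes the enzyme that removes O-GlcNAc from proteins. The locus of this name holds matches to more than 1 gene, so its counts may not be of Mgea5 alone. XLOC_018142 over its end (chr19:45806482-45822062 on the plus strand, 40.2% shared) went from 67.2, 54.9 and 34.9 to 602, 538 and 903 counts, a rise of 3.69 (SE 0.35, adjusted p = 0.000114). Mgea5 had 47477, 61501 and 36123 counts at day 0 and 55950, 53210 and 56803 at day 6, and its stages overlapped. Its change of 0.23 did not pass the test (SE 0.19, adjusted p = 0.37) and passed it without day 0 replicate 2 (0.42, adjusted p = 0.0338). The ratio of this pair changed by 3.46 (SE 0.29, adjusted p = 6.4e-05).

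Rarres1 is a gene induced by retinoic acid. XLOC_022533 at its start (chr3:67308146-67323757 on the plus strand, 8.86% shared) had 6.98, 11.4 and 23.9 counts at day 0 and 57.8, 111 and 165 at day 6, a rise of 2.93 (SE 0.55, adjusted p = 0.00319). Rarres1 had 96.8, 77.7 and 142 counts at day 0 and 46.6, 61.5 and 86.6 at day 6, and its change of -0.69 did not pass the test (SE 0.37, adjusted p = 0.164). Replicate 3 was the highest library of both loci at both stages, and the ratio changed by 3.62 (SE 0.39, adjusted p = 0.000229). The pair was also picked for a large change of a called ratio, so the call of the ratio was set by the choice. Pawr encodes a protein that promotes cell death. XLOC_003622 inside it (chr10:107746961-107769664 on the minus strand, 68.9% shared) went from 60.2, 139.8 and 149.6 to 13.2, 11.3 and 13.6 counts, so that it fell by 3.00 (SE 0.42, adjusted p = 0.000832). Pawr had 8835, 8877 and 8258 counts at day 0 and 8156, 7088 and 7798 at day 6 (change -0.17, adjusted p = 0.303). All its day 6 values lay below all its day 0 values, the direction of the antisense locus. Of the alternatives run, Pawr passed the test with quantile normalization (-0.36, adjusted p = 0.0494). A locus inside Hdac9, a class II histone deacetylase, was picked after its values were seen. XLOC_006895 (chr12:34997364-35000411 on the plus strand, 7.15% shared) had no read at day 0 and 41.6, 45.1 and 51.1 counts at day 6, and rose (adjusted p = 3.72e-05). Hdac9 had 471, 184 and 229 counts at day 0 and 284, 245 and 282 at day 6, with no call (adjusted p = 0.988).

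In 61 pairs the partner changed and no call was made for the antisense locus. Lrrc4b, a synaptic adhesion protein, rose by 3.06 (SE 0.46, adjusted p = 0.00116), from 40.1, 11.4 and 16 to 157, 172 and 181 counts. XLOC_032898 inside it (chr7:51700503-51710383 on the minus strand, 1.68% shared) had 202, 31.1 and 25.9 counts at day 0, with replicate 1 far above the others, and 94.3, 45.1 and 60.5 at day 6 (adjusted p = 0.843). The ratio fell by 2.85 (SE 0.47, adjusted p = 0.00231), and the pair was picked for a large change of a called ratio. 3 pairs with large changes of the partner were picked after their values were seen. Trim9, a ubiquitin ligase of the nervous system, rose by 6.27 (SE 0.41, adjusted p = 2.54e-05), from 12.2, 6.21 and 6.98 to 586, 519 and 1150 counts. Gm32151 (XLOC_006982), which starts 639 nt from the start of Trim9, had 14.8, 3.11 and 11 counts at day 0 and 22.3, 20.5 and 15.7 at day 6 and did not pass the test (adjusted p = 0.131), except with quantile normalization (adjusted p = 0.0391). Clic6, a chloride channel protein, rose by 5.14 (SE 0.40, adjusted p = 4.69e-05), from 529.5, 167 and 204 to 8288, 9462 and 10184 counts, and XLOC_014272 inside it had 653, 103 and 297 counts at day 0 and 227, 185 and 258 at day 6. It shares 50.4% of its exonic bases with Clic6. Fdft1, which encodes squalene synthase of sterol synthesis, rose by 4.12 (SE 0.17, adjusted p = 4.38e-06), and XLOC_010686, with 84.3% of its exonic bases in exons of Fdft1, had 181, 94.2 and 341 counts at day 0 and 214, 124 and 158 at day 6. In both of these the stages of the antisense locus overlapped, and the ratio of the pair changed by -5.43 for Clic6 (SE 0.34, adjusted p = 1.89e-05) and by -4.28 for Fdft1 (SE 0.48, adjusted p = 0.000298).

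The 7 pairs called together with starts within 1000 nt had the partners Rhou, Etv6, Trabd2b, Sel1l3, Ascl4, Bdnf and 4930445E18Rik. The first 4 pairs rose and the other 3 fell. Rhou went from 4171, 3459 and 3418 to 14706, 15236 and 13262 counts, a rise of 1.97 (SE 0.14, adjusted p = 3.45e-05). XLOC_035591, whose start lies 52 nt from that of Rhou (chr8:126174713-126177881 on the minus strand), had 12.2, 18.6 and 23.9 counts at day 0 and 40.6, 50.2 and 45.9 at day 6, a rise of 1.32 (SE 0.37, adjusted p = 0.0211) that was lost without day 6 replicate 1, 2 or 3 (adjusted p up to 0.0954). Etv6, an ETS-family repressor of transcription, rose by 0.97 (SE 0.21, adjusted p = 0.00693), from 1369, 1834 and 2339 to 3583, 3628 and 3411 counts. XLOC_030595, whose start lies 96 nt from that of Etv6 (chr6:133975293-133985821 on the minus strand), had 5.23, 6.21 and 17 counts at day 0 and 44.6, 86.1 and 40.7 at day 6, a rise of 2.56 (SE 0.52, adjusted p = 0.00502). Bdnf, a neurotrophin, changed by -2.54 (SE 0.31, adjusted p = 0.00042), from 1316, 2165 and 2240 to 258, 275 and 457 counts. Gm45346 (XLOC_020962), which starts 124 nt from the start of Bdnf at chr2:109509669-109514981 on the minus strand, had 27, 89.1 and 55.8 counts at day 0 and 21.3, 11.3 and 19.8 at day 6 and changed by -1.55 (SE 0.50, adjusted p = 0.0357), a call that held without day 0 replicate 1 and in no other fit with 1 library left out, and was lost with quantile normalization (adjusted p = 0.0959) and with library weights per stage (adjusted p = 0.0568). Ascl4, a basic helix-loop-helix transcription factor, changed by -1.23 (SE 0.40, adjusted p = 0.0383) and XLOC_003509 by -1.52 (SE 0.43, adjusted p = 0.0202). The call of Ascl4 held without day 0 replicate 1 and in no other fit with 1 library left out, and that of the antisense locus was lost without day 0 replicate 3 and without day 6 replicate 1. With quantile normalization and with library weights both calls were lost, at adjusted p = 0.109 and 0.0861 for Ascl4 and 0.0584 and 0.0751 for XLOC_003509. The call of 4930445E18Rik was lost with quantile normalization (adjusted p = 0.0641), without day 0 replicate 3 and without day 6 replicate 1, 2 or 3. All 7 were picked after the values were seen. The antisense loci and partners of the 4 pairs described share 0.789 to 13.1% of exonic bases.

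Promoter sequences of the 3 partners with exactly 1 window in the RefSeq table used (GRCm38.p6) are shown because antisense locus and partner start within 130 nt of each other in the assembly and moved together. Each holds 250 bases before to 50 after the start of the partner's RefSeq gene, in the partner's direction, with each CG in capitals. RefSeq places them at chr8:123653679-123653978 (Rhou), chr6:134035450-134035749 (Etv6) and chr10:85927152-85927451 (Ascl4), all on the plus strand.
Rhou: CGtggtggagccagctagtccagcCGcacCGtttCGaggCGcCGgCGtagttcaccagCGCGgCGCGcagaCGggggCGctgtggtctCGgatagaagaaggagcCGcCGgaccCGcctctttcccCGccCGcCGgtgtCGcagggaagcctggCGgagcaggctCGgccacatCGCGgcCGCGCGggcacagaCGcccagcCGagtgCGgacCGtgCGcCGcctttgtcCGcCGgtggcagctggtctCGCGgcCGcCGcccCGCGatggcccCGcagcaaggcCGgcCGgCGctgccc
Etv6: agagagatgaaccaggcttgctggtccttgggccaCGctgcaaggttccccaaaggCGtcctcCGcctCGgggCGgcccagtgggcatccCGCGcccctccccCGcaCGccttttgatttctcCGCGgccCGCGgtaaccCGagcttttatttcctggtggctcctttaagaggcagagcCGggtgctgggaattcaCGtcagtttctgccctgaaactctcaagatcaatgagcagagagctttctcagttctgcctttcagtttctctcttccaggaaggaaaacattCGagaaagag
Ascl4: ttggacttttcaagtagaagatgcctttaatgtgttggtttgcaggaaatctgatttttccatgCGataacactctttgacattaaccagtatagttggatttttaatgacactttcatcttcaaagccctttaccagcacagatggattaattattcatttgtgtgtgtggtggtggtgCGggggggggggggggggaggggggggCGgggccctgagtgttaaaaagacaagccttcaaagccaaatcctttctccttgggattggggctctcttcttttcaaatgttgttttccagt

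The Rhou window holds 46 CG, the Etv6 window 17 and the Ascl4 window 3. Over 32851 promoter windows of the same length the median was 7, with quartiles of 3 and 20, and 98.4% of windows held fewer CG than that of Rhou. All 3 windows hold GGGCGG, searched on both strands, as do 35.7% of all windows. Overlaps between motifs were not removed. CCAAT is in the Ascl4 window and in 37.4% of all windows, and TATAAA is in none of the 3 and in 13.6% of all. These are matches of letters in this window.

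Of the 119 antisense loci without a partner in the table, 61 lie opposite to a locus with a protein identifier that is outside the count table and 58 have no such locus opposite. In this group 47 of 100 tested loci changed, 15 higher and 32 lower, beside 44% of all tested loci. The loci that follow were picked after their values were seen, for large changes. Hand2os1, a divergent RNA at the gene of Hand2, a transcription factor of the developing heart, is XLOC_035216 at chr8:59770006-59808031 on the minus strand and has 8 exons in its longest transcript. It had 24.4, 7.25 and 27.9 counts at day 0 and 2450, 2581 and 1901 at day 6, a rise of 6.97 (SE 0.48, adjusted p = 2.9e-05), the largest fitted rise among the 170 called loci. The lowest day 6 library had far more counts than any day 0 library. XLOC_023499 (chr3:128877688-128923176 on the minus strand) went from 89.9, 36.2 and 44.9 to 2356, 2502 and 1982 counts, a rise of 5.40 (SE 0.35, adjusted p = 2.5e-05). XLOC_027429 (chr5:15114739-15118418 on the minus strand) had 0, 1.04 and 0 counts at day 0, which is 1 read in all, and 132, 153 and 127 at day 6, and rose (adjusted p = 2.24e-05). XLOC_003271 (chr10:60449615-60526132 on the minus strand) went the other way, from 2416, 1823 and 1427 to 53.7, 71.8 and 69.9 counts, a change of -4.81 (SE 0.28, adjusted p = 1.59e-05). XLOC_032863 (chr7:48298349-48549469 on the minus strand) had 3857, 12458 and 10743 counts at day 0, lowest in replicate 1, and 739, 808 and 1184 at day 6, a change of -3.17 (SE 0.42, adjusted p = 0.000629).

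The 3 tested antisense loci with the most counts per exonic kilobase did not pass the test. XLOC_022551 (chr3:78769395-78771131 on the plus strand, no partner) had 5328, 10210 and 6573 counts at day 0 and 9078, 9441 and 8501 at day 6. Its change of 0.34 (adjusted p = 0.258) passed the test, among the fits with 1 library left out, without day 0 replicate 2 (0.60, adjusted p = 0.00753). XLOC_003362 (chr10:72103500-72137752 on the minus strand) lies opposite to Zwint, a kinetochore protein, and had 12613, 12267 and 8502 counts at day 0 and 13235, 12831 and 13883 at day 6 (change 0.28, adjusted p = 0.223). Zwint was listed at 4.36, 8.29 and 4.99 counts at day 0 and 9.13, 2.05 and 7.31 at day 6 and was not tested. Of the exonic bases of Zwint, 88.2% lie in exons of other loci, and 17% of those of XLOC_003362 lie in exons of Zwint. XLOC_027498 (chr5:30969223-30977961 on the minus strand, no partner) had 5151, 3062 and 4556 counts at day 0 and 5403, 4603 and 4121 at day 6 (change 0.17, adjusted p = 0.56). The stages overlapped for XLOC_022551 and XLOC_027498 and did not for XLOC_003362.

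The antisense loci with the most exons were matched to genes of the later annotation. XLOC_010616, with up to 15 exons at chr14:55432952-55477247 on the plus strand, has the structure of Rnf212b, which GENCODE M21 lists as protein coding. It went from 448, 215 and 234 to 93.3, 54.3 and 60.5 counts, a change of -2.05 (SE 0.38, adjusted p = 0.00311), while its unnamed partner had 34, 6.21 and 20.9 counts at day 0 and 15.2, 20.5 and 10.4 at day 6 (change -0.16, adjusted p = 0.856). This partner shares 74.4% of its exonic bases with other loci. Gm42723 (XLOC_018499), with up to 11 exons at chr19:38331413-38391609 on the minus strand, spans Lgi1, a secreted protein of neurons. Of the exonic bases of Gm42723, 23.8% lie in exons of Lgi1, and 72.7% of those of Lgi1 lie in exons of other loci. The antisense locus went from 456, 322 and 861 to 146, 133 and 191 counts, a change of -1.69 (SE 0.38, adjusted p = 0.00797). Lgi1 had 26.2, 24.9 and 30.9 counts at day 0 and 11.2, 5.13 and 16.7 at day 6, and its change of -1.36 (SE 0.47, adjusted p = 0.0448) kept its call without day 6 replicate 3 and in no other fit with 1 library left out, and lost it with quantile normalization (adjusted p = 0.113) and library weights (adjusted p = 0.162). XLOC_007527, also with up to 11 exons at chr12:73637248-73750805 on the minus strand, was matched to Gm4756, listed as protein coding, and had 3398, 2115 and 2131 counts at day 0 and 2965, 2407 and 2432 at day 6, with no call (adjusted p = 0.85). Of the 52 loci matched in the later annotation, 50 were tested and 22 changed (44%, the share over all tested loci), 6 higher and 16 lower. In the 43 pairs among them with both loci tested, 34 had the same sign.

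Locus and partner also deviated together between replicates of 1 stage. Over the 277 pairs, differences between 2 day 0 replicates had a Pearson correlation between locus and partner of 0.45 for replicates 1 and 2, 0.34 for 1 and 3 and 0.45 for 2 and 3. At day 6 the correlations were 0.09, 0.26 and 0.26. Between 62.8 and 63.9% of pairs had differences of the same sign at day 0 and between 54.5 and 62.5% at day 6, against 72.9% for the change between the stages. In the other opposite-strand pairs the correlations were 0.33, 0.22 and 0.30 at day 0 and 0.10, 0.24 and 0.18 at day 6. Among the 40 antisense pairs with no shared exonic base they were 0.22, 0.48 and 0.08 at day 0 and -0.05, 0.14 and 0.18 at day 6. These values describe pairs that share libraries, depth and, in part, sequence, and no test was made of them.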

How the data were processed

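Poly(A) RNA of 3 day 0 and 3 day 6 libraries was sequenced, at 106306699 to 114092201 counted reads per library. The submitters' processing notes name TopHat2 2.0.8, Cufflinks 2.1.1, HTSeq 0.5.4p3 and DESeq, and the mm9 genome. The deposited table holds gene counts that the authors divided by a size factor per library, a signal that is not a whole number, per the values: 100% of values were whole multiples of a library's step within 0.01 reads. Columns left unused numbered 0. The deposited assembly gave exons, strand and transcript classes. No source used here states whether counting used strand.

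Loci were tested where 3 or more of the 6 libraries reached 10 normalized counts (17145 of 18420). The test was limma 3.58.1 in R 4.3.3 (empirical Bayes with trend and robust estimation, two-sided) on log2(normalized count + 1), day 6 minus day 0, which understates changes of low loci. Benjamini-Hochberg adjusted p under 0.05 over all tested loci counted as changed, and every adjusted p is from this test unless another setting is named. Pair ratios were tested the same way over 2910 opposite-strand pairs, each of a tested locus with its partner. edgeR 4.0.16 (quasi-likelihood test) on the recovered reads was an alternative, beside a pseudocount of 5, no filter, a minimum of 50, quantile normalization, plain empirical Bayes, library weights per stage, the replicate number as a block and leaving out each library. The tests were also run on simulated data.

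Loci were named where their intron and internal exon lengths matched GENCODE M21 (13879 of 18420), 13701 by a whole transcript and 178 by at least 2 runs of introns. Apart from these, 35 antisense loci were named from 1 intron of matching length and distance to an intron of the partner. The order of neighbouring matches was kept within 5 places for 98.3% of 13858 adjacent pairs. A partner can hold more than 1 gene (44 of 319), and Nlrp14, Rab37 and Mgea5 are such cases. Tables were made with Python 3.11.15, pandas 2.3.3 and numpy 2.4.6, and figures with matplotlib 3.10.9.

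The loci, lists and rules were chosen with earlier results of these data known. The rule for named pairs took, in each class of shared exonic percent, the 2 largest rises and the 2 largest falls among called loci without overlap of the stages and with a mean of at least 50 counts in the higher stage. It added the strongest same-way and opposite-way pairs and changes of the pair ratio with at most 10% shared, the 3 loci with the most counts per kilobase and the 3 with the most exons. Results on 1 of the pairs that this rule named are not reported here.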

Additional observations from a re-analysis of the deposited data

How the results depend on the processing

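Of 1480 alternative values of 109 named results (log2 changes and ratios), 1375 kept direction and side of the threshold, 80 fell short of it, 4 passed it and 21 changed sign, all 21 of them of uncalled loci. No antisense locus called both in the reported fit and in an alternative had opposite directions there, and 107 of the 170 calls held in every fit with 1 library left out. With 1 library left out, changed antisense loci ranged from 113 to 191, higher ones from 35 to 62, lower ones from 77 to 132, changed partners from 88 to 154, pairs called the same way from 36 to 81, pairs called in opposite ways from 3 to 9 and changed ratios from 47 to 89. The same-sign share ranged from 60 to 70% with no shared base, 75.5 to 79.6% with up to 10%, 68.4 to 76.1% with 10 to 50% and 60.6 to 73.2% with over 50%. A minimum of 50 counts, which tests fewer loci, gave 106 changed antisense loci (33 higher, 73 lower), 70 partners, 44 pairs called the same way, 41 ratios and a same-sign share of 84.2% among 19 pairs with no shared base. Pairs with at most 10% of the locus inside the span of the partner, a subset chosen after seeing the data, had the same sign in 81% of 21 cases.

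Changes of 7 uncalled loci took the other sign in some fits. With quantile normalization these were -0.049 for XLOC_027498, -0.13 for XLOC_007527, 0.027 for XLOC_010686, 0.22 for XLOC_011191 (the partner of XLOC_010616) and 0.12 for XLOC_007423 (Hdac9), and with edgeR -0.011 for XLOC_007527 and -0.42 for XLOC_032898. With 1 library left out, the log2 change ranged from -0.050 to 0.33 for XLOC_027498, -0.056 to 0.29 for XLOC_007527, -0.32 to 1.14 for XLOC_032898, -0.99 to 0.34 for XLOC_014272, -0.62 to 0.30 for XLOC_010686, -0.81 to 0.33 for XLOC_011191 and -0.29 to 0.39 for XLOC_007423. The cause was not tested.

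With the replicate number as a block, 179 antisense loci changed (52 higher, 127 lower), 169 of them among the 170, with 143 partners, 78 pairs the same way, 7 in opposite ways and 88 ratios, and XLOC_028115 lost its call. The numbers were not taken to pair the libraries: deviations of same-numbered libraries correlated at 0.18, 0.13 and 0.07, though 6 of 6 libraries correlated best with their own number. The pair ratio was not run in edgeR. At low counts, differences within the standard error were not detectable at this depth.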
